A study of Tetranychus urticae with 8 samples.

Results

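The genes described here are the 43 gene IDs of Tetranychus urticae, a plant-feeding spider mite, whose RNA level differed most between pools of adult males. They were chosen by their measured male values. An ID was taken when its mean over the 4 male libraries was over 5 CPM (a gene's reads as a share of the library's reads on genes, scaled to 1000000) and its highest male library was at least 3 times its lowest. Of the 17654 IDs in the deposited count table, 9510 passed the level and 43 of those (0.452%) passed the ratio. The male differences are therefore a description of the choice and were not tested.

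The series compared whole bodies of adult males and adult females of the strain London, kept on cut leaves of common bean, with 4 libraries per sex. Each male library came from about 800 males aged 1 to 2 days and each female library from about 200 females aged 3 days. Sex, age and pool size thus changed together and cannot be told apart. The labels call the libraries of a sex biological replicates without saying whether they came from separate cultures, and p-values measure only the spread between these pools. Male replicates 1 to 4 held 13948079, 21414612, 12082575 and 15358800 reads on genes and the female libraries 12912850 to 17443223.

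In this species unfertilized eggs give haploid sons and fertilized eggs give diploid daughters. Adult males are much smaller than females and guard late juvenile females until these moult and can be mated. Whole-body RNA of males mixes testis, accessory reproductive tissue, gut, nerve, muscle and cuticle, and in such bulk samples fewer cells of a type and less RNA per cell cannot be told apart. The table gives IDs without gene names, and 0 of the 17654 IDs occurred in the RefSeq gene table of the species, so no function, position or sequence can be given for any member. IDs with the same prefix up to the letter g share a unit of the numbering.

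Variation of this size was rare among male pools. The median ratio of highest to lowest male library over the 9510 IDs was 1.16, and its 99th percentile was 2.01. Among the 43 members the ratio ran from 3.03 to 442, with a median of 5.11. The exact 95% interval of the ratio, which covers counting error only and describes values that the choice had used, had a lower bound of 3 or more for 33 members and of 2.19 at the lowest. It was wide where reads were few, as for tetur10g04620, at 48.7 to 696. The members' mean male levels ran from 5.23 to 1709 CPM with a median of 19.95, and 12 of them were at 100 CPM or more.

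The male pools did not take part equally. Male replicate 4 was the highest or the lowest library for 36 of the 43 members and male replicate 3 for 35. Every ID has a highest and a lowest of the 4 libraries, so each pool is an extreme for many IDs in any case. Among all 9510 IDs the combinations with replicate 4 as an extreme held 7.09%, 5.42%, 8.31%, 11.9%, 6.18% and 10.6%. Those with replicate 3 as an extreme held 8.25%, 9.32%, 10.3%, 7.50%, 8.31% and 10.6%. The commonest combination, highest in replicate 3 and lowest in replicate 4, held 23 members (53.5%), and the opposite one held 8 (18.6%). Over all 9510 IDs these combinations held 8.31% and 10.6%, within a range of 5.42% to 11.9% for single combinations. The remaining 12 members were spread over 7 combinations with 1 to 3 members each. Without male replicate 4 only 11 IDs would have met the rule, all of them among the 43. Leaving out replicate 1, 2 or 3 gave 39, 42 and 31 IDs.

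The members can also be counted by pair of libraries. Any of the 9510 IDs with a 3-fold pair met the rule, so these counts describe the same 43 members again. Between male replicates 3 and 4, 37 of the members differed by at least 3-fold, 26 higher in replicate 3 and 11 higher in replicate 4. Between replicates 1 and 4 there were 25 such IDs, and between 2 and 4 there were 10. The 3 pairs among replicates 1, 2 and 3 gave 6, 6 and 8. Replicate 4 was neither the shallowest nor the deepest library. Replicate 3 was the shallowest, and the part of depth in these differences was not tested.

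**Figure D1:**
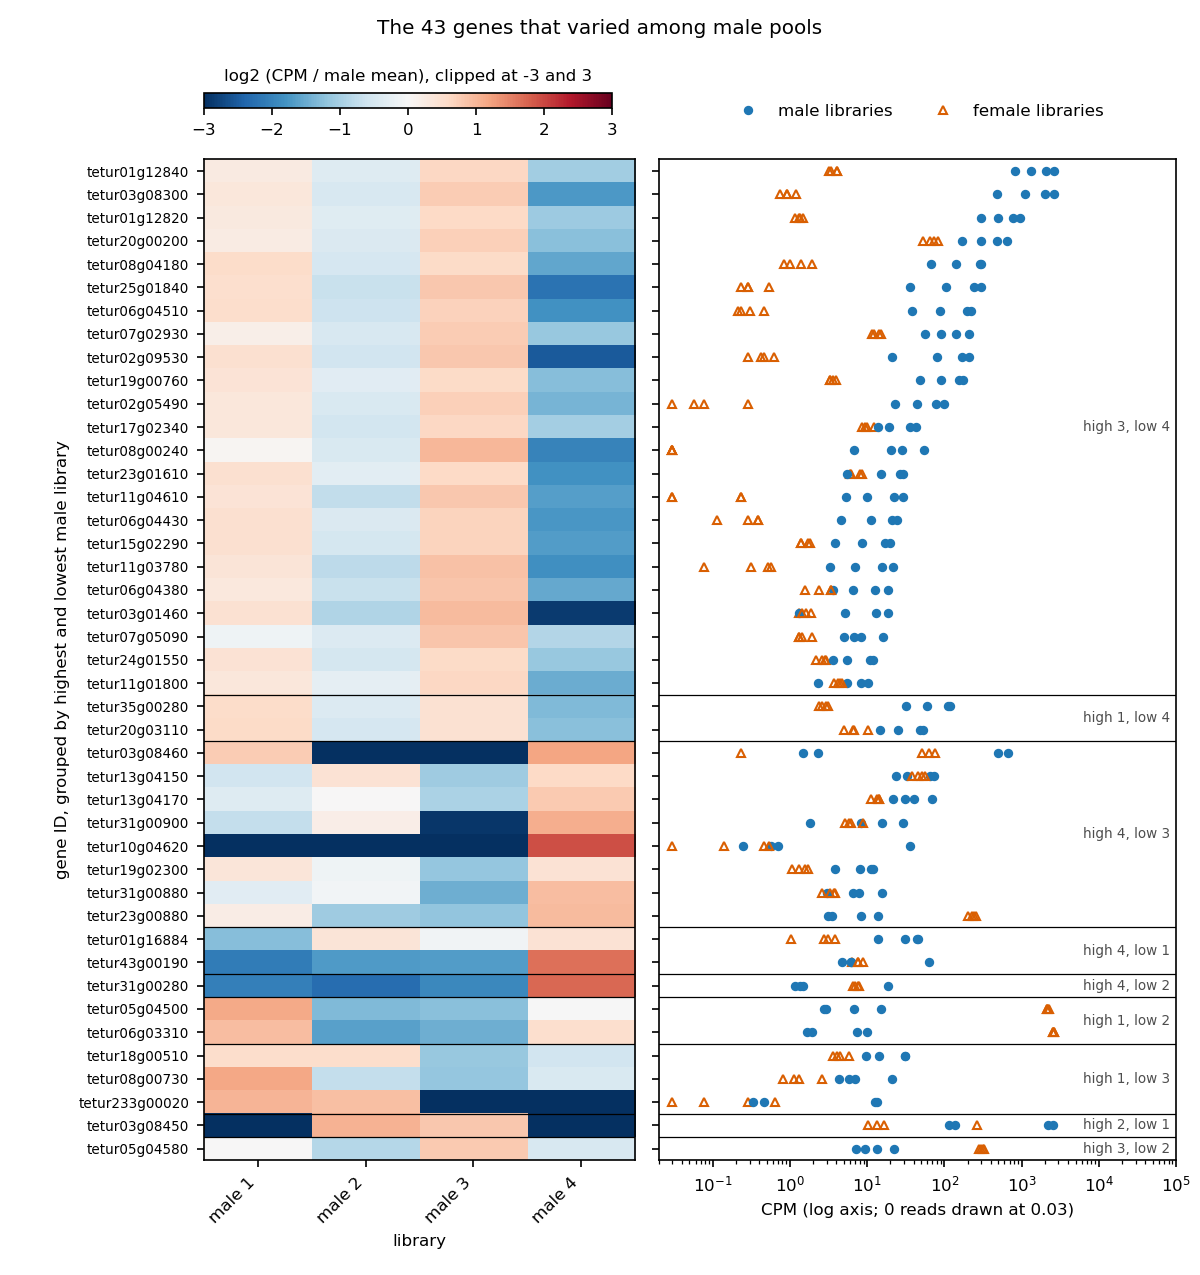
All 43 members, grouped by their highest and lowest male library. Left, log2 of each male library's CPM over the mean of the 4 male libraries (red above the mean, blue below it, clipped at -3 and 3). Right, CPM of the same genes in each male library (filled circles) and each female library (open triangles) on a log axis, with 0 reads drawn at 0.03. The 23 genes at the top share the same order of male libraries, and most of their female values lie far to the left of their male values.

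The largest set had a single order throughout. All 23 members with their highest value in male replicate 3 and their lowest in replicate 4 had replicate 1 next below replicate 3, followed by replicate 2. Relative to each gene's own male mean, the median level of the 23 was 1.31, 0.721, 1.63 and 0.339 in male replicates 1 to 4. The single genes ran from 0.916 to 1.46 in replicate 1, 0.536 to 0.832 in replicate 2, 1.48 to 1.98 in replicate 3 and 0.137 to 0.545 in replicate 4. The widest step in the sorted values lay between replicate 4 and the other libraries for 17 of the 23. Over all 9510 IDs, by contrast, replicate 3 was highest and replicate 4 lowest in 790 (8.31%), and 462 of these also had replicate 1 above replicate 2.

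The set held most of the abundant members. Of the 12 members at 100 CPM or more in males, 10 belonged to it. Together the 23 genes had a summed level of 6789, 3993, 8701 and 2126 CPM in male replicates 1 to 4, so that replicate 3 gave 0.870% of its reads to them and replicate 4 only 0.213%. In the 4 female libraries the sum was 106 to 140 CPM, below every male library.

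The most abundant gene of the set, tetur01g12840, stood at 2064, 1317, 2624 and 833 CPM in male replicates 1 to 4 and at 4.01, 3.23, 4.03 and 3.40 CPM in female replicates 1 to 4. Its lowest male pool was far above every female pool. The gene with the highest ratio in the set, tetur03g01460, had 13.1, 5.09, 18.5 and 1.30 CPM in the males, a ratio of 14.2 (exact 95% counting interval 8.96 to 23.7). Its female libraries had 1.89, 1.31, 1.63 and 1.41 CPM, so that male replicate 4 fell to the female level while the other male pools stayed above it. A further gene, tetur08g00240, had 28.5, 20.1, 54.5 and 6.84 CPM in the males and 0 reads in all 4 female libraries.

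Others among the 23 repeated the profile at very different levels, and these were picked after their values were seen. The gene tetur03g08300 had 1983, 1124, 2653 and 476 CPM in male replicates 1 to 4 and 0.75 to 1.2 CPM in females. The gene tetur02g09530 had 169, 80.6, 210 and 21.03 CPM, and 0.29 to 0.62 CPM in females. The gene tetur20g00200 had 477, 297, 655 and 168 CPM and was the member of the set with the highest female level, 52.6 to 81.7 CPM. The set thus held genes nearly absent from females and a gene with a clear female level. Their highest and lowest male pools were fixed by the choice of the set. Of the 23, 4 had a female mean over 5 CPM, against 16 of all 43 members.

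The same order of pools went on below the ratio of 3. Lowering the ratio to 2 gave 100 IDs, of which 41 peaked in male replicate 3 and were lowest in replicate 4, and 40 had the full order of the 23. The 17 of these with a ratio between 2 and 3 had a median profile of 1.11, 0.827, 1.43 and 0.599. Their summed level in males was 9941, 6716, 11283 and 4736 CPM, above that of the 23 members. At a ratio of 1.5 or more, 94 of 440 IDs (21.4%), the 41 included, were highest in replicate 3 and lowest in replicate 4. The opposite extremes held 65 of the 440 (14.8%). Among all 9510 IDs these shares were 8.31% and 10.6%. The ID nearest below the ratio of 3, tetur19g02450, had this order too, with 35.6, 26.0, 45.02 and 15.1 CPM and a ratio of 2.98.

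Both members that peaked in male replicate 1 and were lowest in replicate 4 came close to this order. The gene tetur35g00280 had 118, 60.2, 110 and 32.3 CPM in male replicates 1 to 4 and 2.41 to 3.11 CPM in females. The gene tetur20g03110 had 52.1, 24.7, 48.2 and 14.5 CPM, and 5.03 to 10.2 CPM in females. In both, replicates 1 and 3 lay close together and well above the remaining pools.

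**Figure D2:**
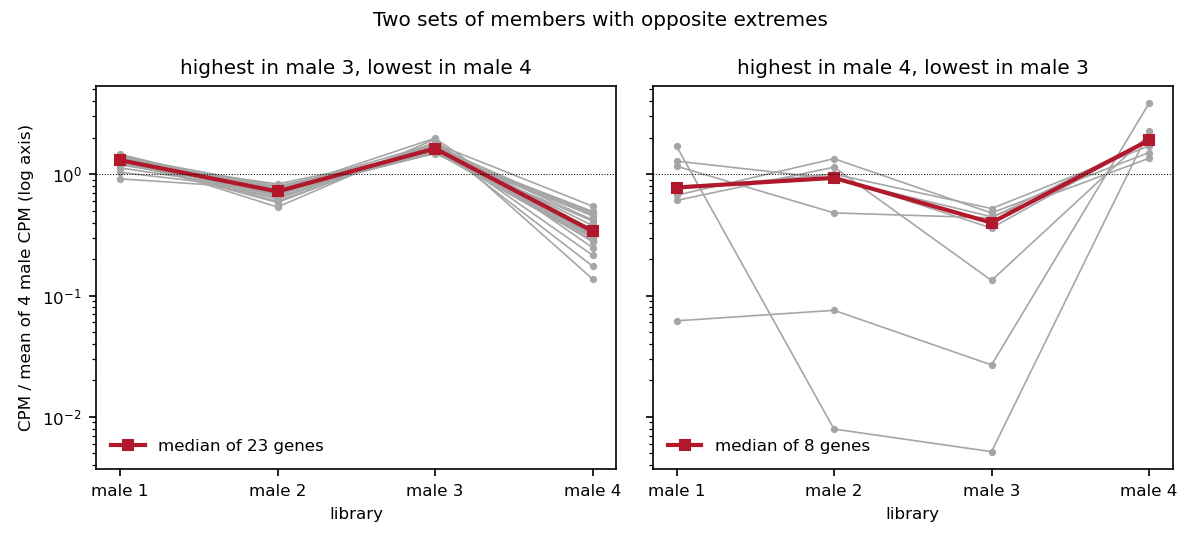
Level of each gene relative to its mean over the 4 male libraries (log axis) in male replicates 1 to 4. Grey lines are single genes and the red line their median, for the 23 members highest in replicate 3 and lowest in replicate 4 (left) and the 8 with the opposite extremes (right). The grey lines run together on the left, and on the right they part widely in replicates 1 and 2.

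The 8 members with the opposite extremes, highest in male replicate 4 and lowest in replicate 3, were less alike. They fell into the order 4, 2, 1, 3 for 5 genes and 4, 1, 2, 3 for 3. Their median relative levels were 0.777, 0.933, 0.399 and 1.91 in male replicates 1 to 4. The one nearest to the threshold of the rule was tetur19g02300, with 11.2, 7.99, 3.89 and 11.8 CPM and a ratio of 3.03.

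Within these 8 were 2 pairs of IDs that stood next but one in the numbering, described after their values were seen. The genes tetur13g04150 and tetur13g04170 had 32.9, 65.9, 23.5 and 74.0 CPM and 31.3, 41.0, 21.4 and 70.1 CPM in male replicates 1 to 4. The ID between them, tetur13g04160, was below 1 CPM in every library, and the ID after them, tetur13g04180, was steady at 85.2 to 87.5 CPM in the males. The genes tetur31g00880 and tetur31g00900 had 6.52, 7.85, 2.98 and 15.7 CPM and 8.32, 15.6, 1.82 and 28.9 CPM. A neighbour, tetur31g00920, fell just short of the rule with 17.5, 22.6, 10.6 and 31.1 CPM and a ratio of 2.93. All 5 of these IDs had the order 4, 2, 1, 3.

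In the larger set, tetur01g12820 and tetur01g12840 were likewise next but one. The gene tetur01g12820 had 778, 492, 967 and 300 CPM in male replicates 1 to 4. The ID between them, tetur01g12830, had the same order at 2.80, 1.45, 4.39 and 0.586 CPM, below the level the rule asked for. The ID before them, tetur01g12810, had 8.32, 8.97, 5.71 and 8.46 CPM, with replicate 3 lowest. Altogether the 43 members carried 22 ID prefixes, and none of the prefixes held more than 4 of them. For the strand setting of the counting and the handling of multiply mapping reads, the sources used here name nothing. Reads shared between overlapping or similar genes could therefore not be examined for any of these neighbours.

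The member with the highest ratio, tetur03g08460, and its directly adjacent ID, tetur03g08450, replaced each other between libraries. The gene tetur03g08450 had 115, 2551, 2174 and 136 CPM in male replicates 1 to 4, and tetur03g08460 had 492, 2.29, 1.49 and 658 CPM. Where the former was high the latter was nearly absent. Their ratios between male libraries were 22.3 and 442.

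Females were split in the same way, although the rule used no female value. The gene tetur03g08450 had 266, 13.2, 16.7 and 10.1 CPM in female replicates 1 to 4, and tetur03g08460 had 0.229, 62.7, 75.0 and 52.1 CPM. Female replicate 1 therefore resembled male replicates 2 and 3, and female replicates 2, 3 and 4 resembled male replicates 1 and 4. The ratio of highest to lowest female library was 26.3 for tetur03g08450 and 327 for tetur03g08460.

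The share of tetur03g08450 in the summed CPM of the pair took only 2 narrow ranges. It was 99.9% in male replicates 2 and 3 and in female replicate 1. It was 18.9% and 17.1% in male replicates 1 and 4, and 17.4%, 18.2% and 16.3% in female replicates 2, 3 and 4. Male and female libraries had nearly the same shares although their levels differed. The sum of the pair was 607, 2553, 2175 and 793 CPM in male replicates 1 to 4 and 266, 75.9, 91.7 and 62.2 CPM in female replicates 1 to 4, so that in each sex it was highest where tetur03g08450 made up nearly all of it.

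This split of the libraries was searched for after the values were seen. Of 10736 IDs with a mean over 1 CPM in both sexes, only these 2 separated male replicates 2 and 3 from 1 and 4, and female replicate 1 from the others in the matching direction, by at least 1.5-fold. The flanking tetur03g08440 and tetur03g08480 had ratios of 1.39 and 1.15 between male libraries, and tetur03g08470 was below 0.3 CPM throughout. Whether reads pass between the pair through similar sequence was not tested.

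**Figure D3:**
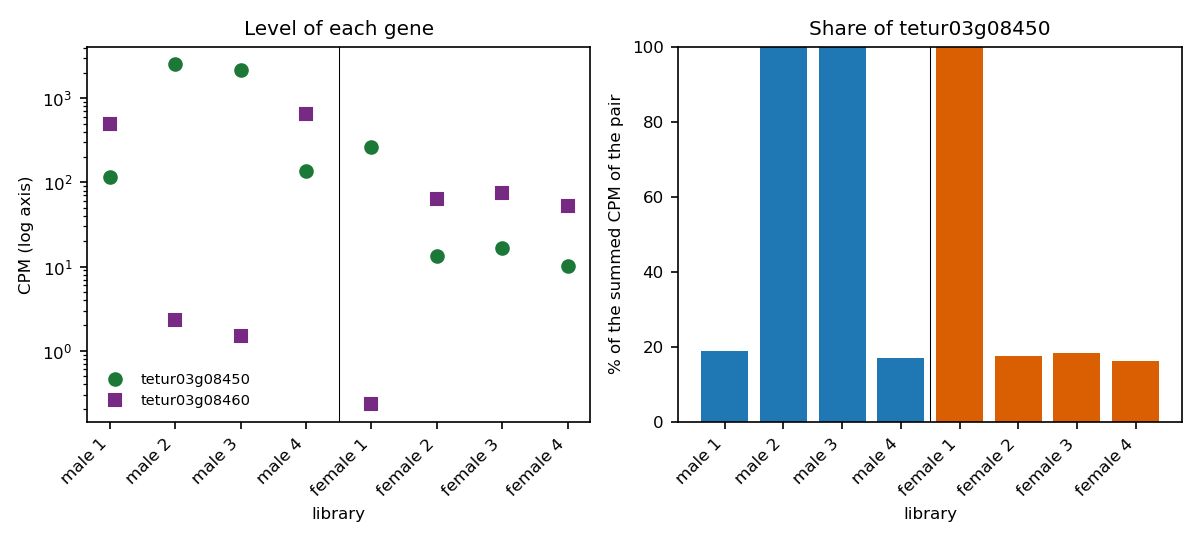
Left, CPM of tetur03g08450 (circles) and tetur03g08460 (squares) in the 4 male and 4 female libraries, on a log axis. Right, tetur03g08450 as a percentage of the summed CPM of both genes in each library (blue male, orange female), which is 99.9% in male replicates 2 and 3 and female replicate 1 and between 16.3% and 18.9% in the other 5 libraries.

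In a few members a single male pool, or a pair of pools, stood alone. The gene tetur10g04620 had 0.574, 0.70, 0.248 and 35.5 CPM in male replicates 1 to 4, which was 3 to 15 reads in the first 3 pools and 546 in the fourth. Female libraries had 0.54 CPM or less. The gene tetur43g00190 had 4.66, 6.12, 6.21 and 62.8 CPM in males, and 6.31 to 8.83 CPM in females, so that only male replicate 4 left the range of the others. The gene tetur31g00280 had 1.36, 1.17, 1.49 and 18.7 CPM in males, with the 4 female libraries between these values at 6.46 to 7.90 CPM.

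The gene tetur233g00020 was split evenly, with 13.4, 12.5, 0.331 and 0.456 CPM in male replicates 1 to 4 and 0 to 0.64 CPM in females. Male replicates 3 and 4 were thus at the level of the females, with 4 and 7 reads. The gene tetur18g00510 showed the same division less sharply, with 30.8, 30.5, 9.68 and 14.2 CPM in males and 3.61 to 5.89 CPM in females. In tetur01g16884, which was lowest in male replicate 1, the values were 13.7, 43.8, 30.9 and 45.3 CPM in males and 1.03, 3.15, 2.79 and 3.82 CPM in females. Female replicate 1 was also the lowest of the females.

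A small group of members was scarce in males and abundant in females. The gene tetur06g03310 had 9.97, 1.68, 1.90 and 7.36 CPM in male replicates 1 to 4 against 2522 to 2642 CPM in females. The gene tetur05g04500 had 15.0, 2.76, 2.90 and 6.84 CPM against 2123 to 2232 CPM. Replicates 1 and 4 were the higher male pools for both.

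As a percentage of the female mean, the male values of tetur06g03310 were 0.385%, 0.0649%, 0.0734% and 0.284% in male replicates 1 to 4. Other abundant female transcripts shared the raised values of replicates 1 and 4 in part. Of the 43 IDs called higher in females with a female mean of 1000 CPM or more, 23 had a male mean under 20 CPM. The members tetur06g03310 and tetur05g04500 were among these 23. The medians of the 23 were 0.339%, 0.102%, 0.125% and 0.275% of the female mean in male replicates 1 to 4. Of the 23, 19 were highest in replicate 1, both members included. Among all 9510 IDs the combinations with replicate 1 highest held 6.21%, 8.25% and 7.09%. Over all 43 IDs the lowest values were 0.0524%, 0.0318%, 0.0343% and 0.0254% in male replicates 1 to 4. The part of female RNA in the male values of these members was not tested. Replicates 1 and 4 were also the higher male pools for tetur23g00880, which was called higher in females too and had 8.39, 3.46, 3.15 and 13.8 CPM in males, or 1.36% to 5.96% of its female mean. The remaining such member, tetur05g04580, was highest in replicates 3 and 1 and stood at 2.38% to 7.43% of its female mean.

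The spread between female libraries could be read for the members with a female level. Of the 43 members, 16 had a female mean over 5 CPM, and the median ratio of highest to lowest female library over these was 1.42. Only 2 of the 16, the adjacent pair, reached a ratio of 3 between female libraries. Over all 9091 IDs above 5 CPM in females the median ratio was 1.15 and the 90th percentile 1.34, below the median of the 16. These IDs were not matched to the 16 in level, and counting error widens the ratio where reads are few. The members most abundant in females, tetur06g03310 and tetur05g04500, had ratios of 1.05. Of the 9091 IDs, 10 (0.11%) reached 3, among them the 2 of the adjacent pair. Those 2 are thus 20% of the IDs that varied in females and 4.65% of those that varied in males. Without female replicate 1, 0 members over 5 CPM in females reached a ratio of 3 between female libraries. The 4 members of the largest set over 5 CPM in females had female ratios of 1.30 to 1.55.

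**Figure D4:**
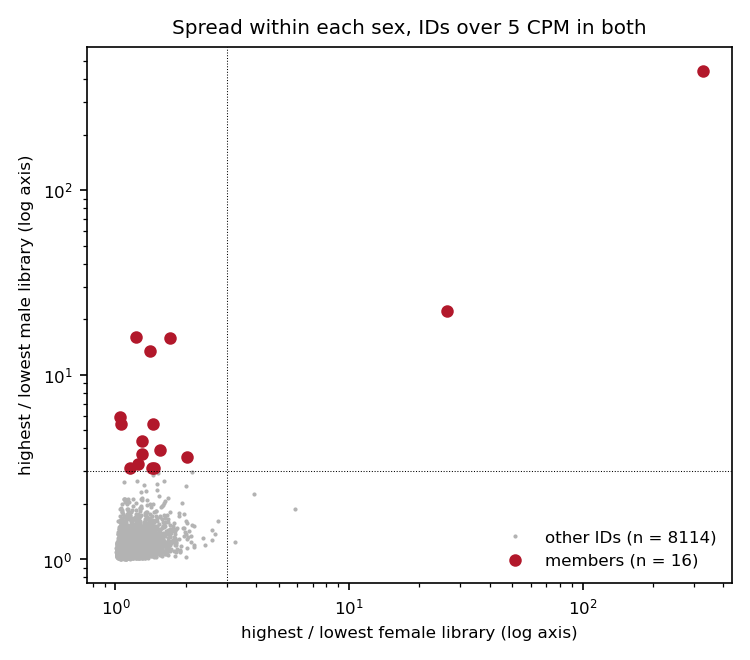
Ratio of the highest to the lowest library within males (vertical) and within females (horizontal), both on log axes, for the 8130 IDs over 5 CPM in both sexes. Red circles are the 16 members, grey points all other IDs, and dotted lines mark a ratio of 3. The members lie above the male line by the choice made, and only the adjacent pair also lies beyond the female line.

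Most members were higher in males. Females and males were compared by edgeR's quasi-likelihood test over all 12885 genes with enough reads. A call required a Benjamini-Hochberg adjusted p under 0.05 together with a fitted change of 2-fold or more. Of the 43 members 41 entered the test, and 32 of these (78.0%) were called higher in males, 4 (9.76%) higher in females and 5 neither. Over all tested genes the corresponding shares were 30.5% for males and 26.9% for females. Among the 9508 tested genes over 5 CPM in males, the level the rule required, the shares were 31.3% and 20.9%. The rule used the male values that enter this test, so the members' counts are read as a description.

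Of the 23 genes of the largest set, 22 were called higher in males and 0 in the other direction, with a median log2 fold change of female over male of -5.05. Of the other 18 tested members, 10 (55.6%) were called for males and 4 (22.2%) for females. The median was -2.63 over the 41 tested members and -0.05 over all tested genes. In 20 of the 23 (87.0%) the lowest male library was above the highest female library. Over the 41 tested members the sexes did not overlap in 31 (75.6%). The share over all tested genes was 86.1%, so the 23 were near it and the 41 below it. Of the 23 genes, 9 had a female mean under 1 CPM, 10 had 1 to 5 CPM and 4 had more.

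The extremes of the comparison were tetur08g00240 and tetur06g03310. The gene tetur08g00240 had no female read. Against a floor of 3 reads summed over the female libraries, its male level was at least 486-fold higher (adjusted p = 6.56e-06, edgeR). The gene tetur06g03310 had a log2 fold change of 8.97 ± 0.39 (SE, n = 4 per sex; adjusted p = 6.49e-12, edgeR), higher in females. For tetur01g12840, the most abundant member, it was -8.87 ± 0.36 (adjusted p = 3.62e-12, edgeR). The ratios between male pools of these genes, 7.98, 5.93 and 3.15 in the order given, were small beside such differences between the sexes. In other members this was not so. The gene tetur31g00900 had a male ratio of 15.9 and a log2 fold change between the sexes of -1.10. Over the members the median male ratio was 5.11 and the median log2 fold change -2.63.

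The 5 tested members not called were tetur11g01800, tetur13g04150, tetur31g00280, tetur43g00190 and tetur03g08460. The log2 fold change of tetur03g08460 was -2.63 ± 1.21 (adjusted p = 0.0527, edgeR). Over the 16 alternatives its adjusted p ran from 0.0133 to 0.691, and it was called in 4 of them. Its log2 fold change shrank to -1.31 with limma-voom. Its partner tetur03g08450 was called higher in males with a log2 fold change of -4.02 ± 1.14 (adjusted p = 0.00397, edgeR). Both fits mixed sex with the split of the pair, which fell differently in males and females. In male replicates 1 and 4 tetur03g08460 had 492 and 658 CPM, against 52.1 to 75.0 CPM in female replicates 2 to 4. In the same libraries tetur03g08450 had 115 and 136 CPM against 10.1 to 16.7 CPM. In male replicates 2 and 3 it had 2551 and 2174 CPM, against 266 CPM in female replicate 1. There tetur03g08460 had 2.29 and 1.49 CPM against 0.229 CPM. The part of the split was not tested. For tetur43g00190 the log2 fold change of -1.40 ± 0.68 (adjusted p = 0.0644, edgeR) turned to 0.39 without male replicate 4, while 5 alternatives called it higher in males (adjusted p 0.0199 to 0.0423). For tetur31g00280 it was 0.35 ± 0.64 (adjusted p = 0.613, edgeR), and it was called higher in females without male replicate 4 (2.43) and with limma-voom (1.48, adjusted p = 0.0183).

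The members tetur10g04620 and tetur233g00020 did not enter the test because too few libraries held enough reads. The means and SDs over the 4 male libraries were 9.27 ± 17.5 CPM and 6.67 ± 7.25 CPM (n = 4), each SD larger than its mean.

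**Figure D5:**
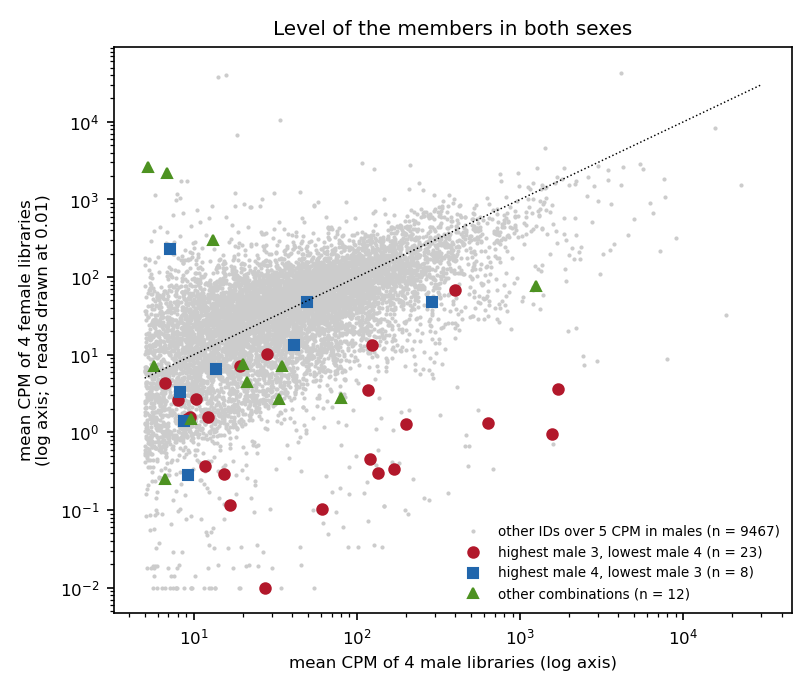
Mean CPM of the 4 male libraries (horizontal) and of the 4 female libraries (vertical), both on log axes, for all IDs over 5 CPM in males, with 0 reads drawn at 0.01. The dotted line marks equal levels. Of the 23 genes highest in male replicate 3 and lowest in replicate 4 (red circles) all lie below the line, as do 7 of the 8 with the opposite extremes (blue squares), and the 3 green triangles and the blue square far above it are the 4 members called higher in females.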

How the data were processed

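RNA sequencing of poly(A)-selected, strand-specific libraries gave 1 column of counts for each of the 8 libraries. The authors deposited whole-number read counts per gene ID with no normalization, as the whole numbers and unequal column sums show. The submitters' processing notes name STAR 2.4.1d and HTSeq 0.6.1; for settings, genome build and annotation the sources used here name nothing. The members, the lists and the tests were chosen with earlier results of these data known. Libraries were assigned by the names in their descriptions and titles.

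CPM is the count divided by the column sum, times 1000000, so 1 read is 0.0467 to 0.0828 CPM. Sexes were compared with edgeR 4.0.16 (R 4.3.3; TMM scaling, filterByExpr, quasi-likelihood F test) on the 12885 genes kept of 17654 and tested on simulated data. The SE of a log2 fold change is its size over the square root of F. Alternatives were other scalings, filters and thresholds, DESeq2 1.42.0, limma-voom (limma 3.58.1), a replicate block and leaving out libraries. Intervals cover counting error only.

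Named were, per combination of highest and lowest male library with 2 or more members, the one with the highest mean and the one with the highest ratio; the IDs nearest the ratio of 3; and the called members with the extreme log2 fold changes. Other IDs were named after their values were seen.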

Additional observations from a re-analysis of the deposited data

Results flagged for a closer look

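A library was taken to stand far from the rest of its sex when its gap to the nearest other library, divided by the range of the 4, was above Dixon's 95% critical value for 4 samples. Chance gives about 1 in 20 such groups, and of 85 groups looked at (43 members in males and the 42 with a female read) 6 met this, 4 in males, where the members had been chosen for their spread, and 2 in females. In males the gap was 0.987 of the range for tetur10g04620, 0.982 for tetur31g00280 and 0.973 for tetur43g00190, each high in male replicate 4, and 0.843 for tetur08g00730, high in male replicate 1 with 21.2 CPM against 4.30 to 6.97 CPM. In females it was 0.974 for tetur03g08450, high in female replicate 1, and 0.830 for tetur07g05090, which had 1.94 CPM in female replicate 3 against 1.31 to 1.41 CPM. For tetur07g05090 these were 25 reads against 17 to 23, and the part of counting error was not tested. The 2 flagged of 42 female groups were near 1 in 20.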

How the results depend on the processing

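The rule gave 44 to 46 IDs, and 23 or 24 in the largest set, under TMM, DESeq2 size factor and upper quartile scaling, with at least 42 of the 43 kept. A minimum mean of 2 CPM gave 70 IDs. Ratios of 2 and 4 gave 100 and 27, with 41 and 15 in the largest set. Leaving out a male library gave 11 to 42 IDs, the lowest without male replicate 4. Leaving out a female library gave 0 to 2 members over 5 CPM in females with 3-fold between females, the lowest without female replicate 1. A minimum female mean of 2 CPM gave 3 such members with all female libraries, the adjacent pair and tetur01g16884, which had 1.03 to 3.82 CPM in females. Members called higher in males numbered 22 to 36 over the 16 alternatives to the comparison of the sexes, and higher in females 4 or 5. The 22 came with the filter at 5 CPM in 4 libraries, which tests fewer genes. Upper quartile scaling moved the median log2 difference over every tested gene from -0.05 to -0.27. Deviations from the sex means were nearly uncorrelated between libraries of the same number (-0.0926 to 0.0351). This does not show whether equal replicate numbers mark paired libraries, and the labels do not say. With the replicate block 31 members were higher in males and 4 in females. Of the 41 tested members and 1 ID outside the rule, 35 kept their direction and call wherever they had a value, 25 of them in all 16 alternatives and 10 in all but the 5 CPM filter, which left them out. The uncalled difference of tetur13g04150 turned from -0.08 to 0.014 with limma-voom, 0.021 with the replicate block, and lay between -0.30 and 0.148 when single libraries were left out (0.099 and 0.148 without male replicates 2 and 4, 0.010 without female replicate 2). That of tetur31g00280 turned to -0.054 without male replicate 2 (2.43, called, without male replicate 4, and 1.48, called, with limma-voom), and that of tetur43g00190 to 0.39 without male replicate 4 and -1.74 without male replicate 2; it was called higher in males with upper quartile scaling, without a filter, and without male replicate 1, 2 or 3. The log2 fold change of tetur03g08460 shrank from -2.63 to -0.90 with the replicate block (adjusted p = 0.691). The call of tetur31g00900 was lost in 8 alternatives (adjusted p up to 0.291) and that of tetur31g00880 without male replicate 4; the cause was not tested. Depth limits the lowest values: 4 members had fewer than 20 reads in their lowest male library.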

Other observations

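Below the level the rule asked for, 91 IDs at 1 to 5 CPM in males differed by at least 3-fold between male libraries. Reads were few at this level, with 1 read at 0.0467 to 0.0828 CPM, and counting error widens the ratio. Its part in these counts was not tested. Of these, 18 peaked in male replicate 1 and were lowest in replicate 3, 13 highest in replicate 1 and lowest in replicate 2, and 12 highest in replicate 4 and lowest in replicate 3. The extremes of the largest set, highest in replicate 3 and lowest in replicate 4, were found in 8 of them.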
